A study of Rattus norvegicus with 6 samples.

Results

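Glycosyltransferases and sulfotransferases, the enzymes that build and sulfate the sugar chains of secreted and membrane proteins, were followed in rat osteoblast-like cells treated with a protease inhibitor. Members were the probe sets whose platform annotation gives exactly 1 gene symbol of the families Galnt, B3galt, B3gnt, B3gat, B4galt, Mgat, St3gal, St6gal (which takes in St6galnac), St8sia, Fut, Chst, Chsy, Hs2st to Hs6st, Ndst, Ext, Xylt and Alg. The rule used names alone and found 150 of 31099 probe sets, standing for 98 of the 14217 genes the annotation names on the array. The cells were UMR106-01, a line from a rat osteosarcoma used as a model of osteoblasts. All 6 cultures grew in medium with 10% fetal bovine serum and were re-fed 64 h after plating with 6.5 mM beta-glycerol phosphate, a phosphate source that makes the condition mineralizing. The 3 mineralizing cultures received nothing else. The 3 AEBSF cultures had 400 µM AEBSF as well, which blocks serine proteases irreversibly, and all were collected at 76 h, after 12 h of exposure. Each culture gave 1 array, all come from 1 cell line, and a culture without beta-glycerol phosphate was not analysed here.

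Asparagine-linked glycans are built in stages. Enzymes of the Alg family assemble a lipid-linked precursor at the membrane of the endoplasmic reticulum, an oligosaccharyltransferase moves it to the protein, and Golgi enzymes then trim it, branch it and cap it with galactose, fucose and sialic acid. Mucin-type O-glycans start with a GalNAc placed on serine or threonine by the Galnt family. Glycosaminoglycans, the long sulfated chains of proteoglycans, start with a xylose on serine, continue through a short linker, and are extended as heparan or chondroitin chains and sulfated. In bone, proteoglycans hold growth factors in the matrix, and loss of the heparan polymerases EXT1 or EXT2 causes multiple cartilage-capped bone tumours in people.

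With AEBSF, 11 of the 69 tested enzyme genes changed, about as often down as up. Of 98 member genes, 29 lay below the signal filter and 69 were tested, each through the probe set that was brightest on average. In limma, 6 of the 69 fell (St3gal5, St6galnac3, Alg14, Alg8, Ext2 and Extl1) and 5 rose (B4galt1, St8sia4, Xylt2, Mgat4b and Ext1) at a Benjamini-Hochberg adjusted p under 0.05. The share of members called was 15.9%, against 16.3% of all 9864 tested genes, 9.24% lower and 7.11% higher. The members' share was near the background in this fit and numerically below it in most of the others run, a difference that was not tested. Their median log2 fold change was -0.02, against 0.002 for all tested genes, and 39 values lay below 0 and 30 above. The 11 called members changed by 1.14- to 1.80-fold, with a median of 1.29-fold, against a median of 1.28-fold over all called genes. The 1.80-fold is that of Extl1. Its AEBSF mean (56.6) lay below the signal filter (67.2), so it was tested by virtue of its mineralizing arrays. By probe set, 7 of the 98 tested fell and 6 rose, where 7.41% and 5.99% of all 18625 tested probe sets did.

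Only St3gal5 and B4galt1 passed without each array in turn. Without 1 array at a time, the number lower was 2, 2 and 1 without mineralizing cultures 1, 2 and 3 and 4, 3 and 4 without AEBSF cultures 1, 2 and 3, and the number higher was 2, 1, 1, 2, 1 and 3 in the same order. In these 6 fits the share of members called was 5.80%, 4.41%, 2.90%, 8.70%, 5.80% and 10.1%, and the share of all tested genes also fell, to 8.03%, 8.36%, 10.0%, 10.8%, 12.1% and 14.8%. St3gal5 passed in all 18 alternative fits run, B4galt1 in 17, St6galnac3 in 14 of the 17 in which it was tested, Ext2 in 13 of 18 and Xylt2 in 11 of 18. The other 6 members passed in 9 or fewer. At gene level 19 of the 69 tested members had groups that did not overlap, 11 lower and 8 higher with AEBSF, where 36.1% of all tested genes did (19.1% lower and 16.9% higher).

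**Figure D1:**
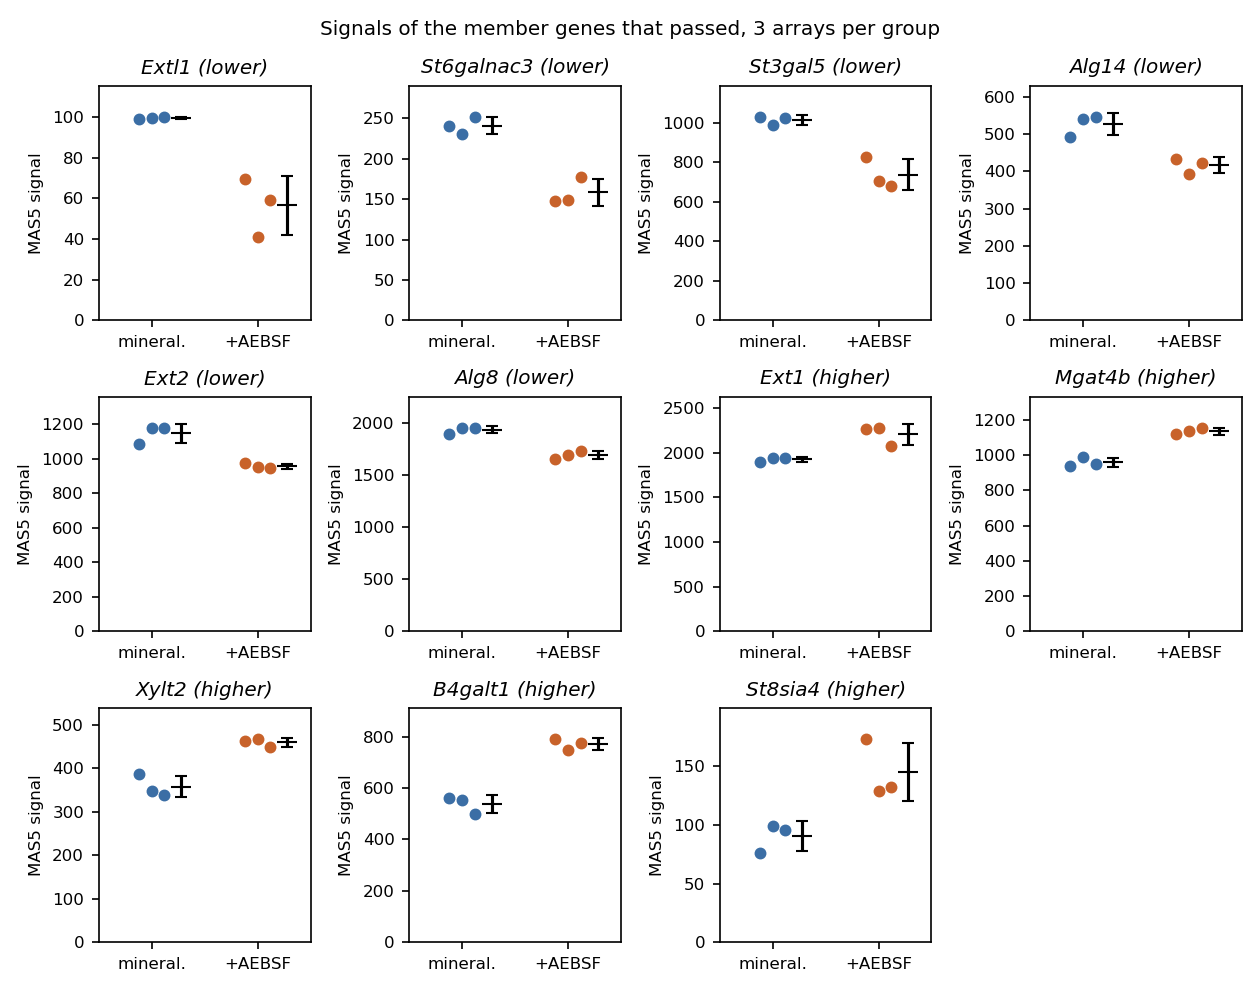
MAS5 signal (linear scale from 0) of the 11 member genes that passed, with 1 point per array, mineralizing arrays in blue and AEBSF arrays in orange, and black marks for the mean and SD of 3 arrays. The points of the 2 groups do not overlap in any of the 11 panels, from Extl1 with signals at or below 100.2 to Ext1 with signals of 1897 to 2281.

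Promoter sequence is shown for the 4 members called in the most fits whose window is in the RefSeq table used here, to set the sequences that start these transcripts beside their changes. Each window runs from 250 bases before to 50 bases after the transcript start in RefSeq's annotation of GRCr8, written 5′ to 3′ on the strand of the gene. They are chr5:60778396-60778695 on the minus strand for B4galt1, which rose, and chr4:105692590-105692889 on the plus strand for St3gal5, which fell. The others are chr2:245304896-245305195 on the minus strand for St6galnac3, which fell, and chr10:80116209-80116508 on the minus strand for Xylt2, which rose. Capitals mark matches on either strand to the GC box (GGGCGG), the CCAAT box (CCAAT) and the core of the antioxidant response element (TGACNNNGC).
B4galt1: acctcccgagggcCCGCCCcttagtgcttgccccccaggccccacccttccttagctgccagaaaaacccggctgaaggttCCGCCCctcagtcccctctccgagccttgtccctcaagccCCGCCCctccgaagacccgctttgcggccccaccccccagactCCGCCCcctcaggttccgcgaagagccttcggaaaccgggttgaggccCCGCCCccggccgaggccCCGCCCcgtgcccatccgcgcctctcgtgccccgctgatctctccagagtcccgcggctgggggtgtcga
St3gal5: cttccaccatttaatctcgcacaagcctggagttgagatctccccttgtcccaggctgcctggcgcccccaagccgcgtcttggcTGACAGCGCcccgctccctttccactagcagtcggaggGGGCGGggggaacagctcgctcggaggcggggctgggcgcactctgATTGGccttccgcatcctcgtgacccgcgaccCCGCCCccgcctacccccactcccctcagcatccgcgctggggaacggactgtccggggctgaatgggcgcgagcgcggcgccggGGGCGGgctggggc
St6galnac3: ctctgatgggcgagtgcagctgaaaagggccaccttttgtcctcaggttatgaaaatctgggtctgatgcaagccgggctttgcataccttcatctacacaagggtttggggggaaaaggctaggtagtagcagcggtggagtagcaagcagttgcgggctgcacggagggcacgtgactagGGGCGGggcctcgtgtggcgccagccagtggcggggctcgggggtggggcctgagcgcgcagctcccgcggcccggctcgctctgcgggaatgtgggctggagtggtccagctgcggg
Xylt2: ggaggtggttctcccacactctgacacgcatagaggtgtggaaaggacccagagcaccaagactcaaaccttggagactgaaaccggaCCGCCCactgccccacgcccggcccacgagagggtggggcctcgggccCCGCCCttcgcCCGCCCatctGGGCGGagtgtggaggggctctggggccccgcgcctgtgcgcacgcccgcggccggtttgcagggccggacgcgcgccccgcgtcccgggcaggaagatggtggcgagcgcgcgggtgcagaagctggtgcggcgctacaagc

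Of the windows shown, B4galt1 held 6 GC boxes, Xylt2 4, St3gal5 3 and St6galnac3 1. Among all called members with a window, 4 of 4 higher and 3 of 5 lower held at least 1, and Alg8 and Extl1 held 0. RefSeq windows were matched for 57 of the 69 tested members and 9 of the 11 called. A GC box was found in 36 of the 57 (63.2%), against 43.1% of 18999 promoters of protein-coding genes of the same length, and the median GC content was 61.7% against 55.3%. The GC box itself is GC-rich, so these 2 shares are not separate measures. The 57 windows are of genes above the signal filter, while the 18999 were not filtered by signal. The 2 sets thus differ in more than enzyme family, and the differences were not tested. A CCAAT box was in 36.8% of the tested members' windows and in 38.4% of all, and the antioxidant core in 17.5% and 12.7%. The cAMP response element (TGACGTCA) was in 3.51% and 2.22%. Of the 9 called members, Alg14 and St3gal5, both lower with AEBSF, held the antioxidant core. Motifs of the unfolded protein response were searched too, on both strands: the ER stress element, the ER stress element II, and the ATF6 and XBP1 site TGACGTGG. These letters were in 0 of the 57 windows, where 0.0947%, 0.0684% and 0.632% of all promoters held them. At shares this low 57 windows are too few to show a difference, which was not tested. The ER stress element contains a CCAAT box, so any match to it would also count there.

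Among the 26 genes of N-glycan synthesis, 22 were tested, and 2 fell and 3 rose, a share of 22.7% against 16.3% of all tested genes. The difference was not tested. The 2 falls were among 11 tested genes of lipid-linked precursor assembly (18.2%, against 9.24% of all tested genes lower). The 3 rises were among 11 of the Golgi steps (27.3%, against 7.11% higher). The median log2 fold changes of these steps were -0.03 and -0.008, and the split by step was not tested. Of the 5 calls only B4galt1 passed without each array in turn. Alg14 anchors Alg13 at the membrane, and together they add the second sugar of the precursor. Its signals were 493, 539 and 547 in the mineralizing arrays and 434, 393 and 423 with AEBSF. All AEBSF values lay below all mineralizing values, and the mean fell from 526 ± 29.1 to 417 ± 21.4 (SD, n = 3 each), a log2 fold change of -0.34 (SE 0.09, limma adjusted p = 0.0325). The call was lost without any 1 of the 6 arrays (limma adjusted p from 0.05 to 0.112).

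Alg8, which adds the second glucose of the precursor, had signals of 1903, 1961 and 1958 in the mineralizing arrays and 1656, 1699 and 1731 with AEBSF. The groups did not overlap and the spread within each was small, but the fall was of 1.14-fold (-0.19 on the log2 scale, SE 0.06, limma adjusted p = 0.0374). It was lost when mineralizing array 1, 2 or 3 (limma adjusted p = 0.0902, 0.128 and 0.104) or AEBSF array 1 or 2 was left out (0.0964 and 0.0665).

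The other 9 tested genes of precursor assembly did not pass, and the 95% interval of each lay within 1.5-fold of no change. Alg5, which makes the glucose donor dolichol-phosphate glucose, stood at 2676, 2644 and 2719 without AEBSF and 2434, 2449 and 2428 with it (log2 fold change -0.14, SE 0.05, limma adjusted p = 0.0983). Those groups do not overlap. Alg10, which adds the last glucose, stood at 2206, 2098 and 2296 without AEBSF and 2443, 2347 and 2405 with it (0.13, SE 0.06, limma adjusted p = 0.168), also without overlap but in the other direction. Alg12, a mannosyltransferase of the same precursor, gave 1788 ± 69.0 and 1763 ± 164 (limma adjusted p = 0.869). The 3 glucose steps of Alg5, Alg8 and Alg10 thus held values on both sides of 0.

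Alg13l1, placed with precursor assembly from its symbol alone, had 2 tested probe sets that differed. The one with the slightly higher mean gave 732 ± 55.0 and 717 ± 21.3 (log2 fold change -0.03, limma adjusted p = 0.865). The other fell from 734, 704 and 757 to 594, 559 and 604 (log2 fold change -0.32, SE 0.08, limma adjusted p = 0.0191). Whether this gene fell depends on which is read.

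In the Golgi steps, B4galt1 gave the firmest rise of all members. It encodes the main galactosyltransferase that adds galactose to the GlcNAc ends of N-glycans. Its signals were 562, 552 and 498 in the mineralizing arrays and 792, 747 and 774 with AEBSF, so that the lowest AEBSF value stood well above the highest mineralizing one. The mean rose 1.44-fold, from 537 ± 34.7 to 771 ± 22.8 (log2 fold change 0.52, SE 0.08, 95% interval 0.35 to 0.70, limma adjusted p = 0.00198). A second probe set of it gave 0.36 (SE 0.25, limma adjusted p = 0.383), and averaging both lost the call (limma adjusted p = 0.0545, where the 18 alternatives ranged from 0.00154 to 0.0545).

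Mgat4b, which opens a GlcNAc branch on the N-glycan core, rose 1.19-fold, from 937, 987 and 950 to 1117, 1135 and 1156 (log2 fold change 0.25 with SE 0.06 and limma adjusted p = 0.0257). The 3 AEBSF values lay close together above the mineralizing ones. Mgat4a, its paralogue with the same activity, named outside the fixed rule, stood at 1055, 966 and 877 without AEBSF and 866, 1050 and 905 with it. Those values overlap fully (log2 fold change -0.04, limma adjusted p = 0.821), and the difference between the paralogues was not tested. The Mgat4b call was lost when mineralizing array 1, 2 or 3 (limma adjusted p = 0.101, 0.0617 and 0.0768) or AEBSF array 2 or 3 was left out (0.0511 and 0.05), and with the arrays scaled to their hybridization controls (log2 fold change 0.12, limma adjusted p = 0.493).

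St8sia4, a polysialyltransferase that builds chains of sialic acid on the neural adhesion molecule NCAM, was dim but higher with AEBSF. Its signals were 76.0, 99.3 and 95.9 without the inhibitor and 173, 129 and 132 with it, without overlap (1.60-fold, or 0.67 on the log2 scale, SE 0.20, limma adjusted p = 0.0478). A second probe set gave 0.48 (limma adjusted p = 0.193), and the call was lost without any 1 of the 6 arrays (limma adjusted p = 0.155, 0.0794, 0.0813, 0.163, 0.0594 and 0.0668). St8sia2, the other polysialyltransferase, also outside that rule, lay far below the filter, with signals from 1.97 to 3.89 on the 6 arrays.

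Of the other 8 tested Golgi genes of this group, 0 passed in limma and 1 had an unadjusted p under 0.05. That was St6gal1, the sialyltransferase that caps these galactose residues, named after its values were seen, at 465 ± 54.8 and 351 ± 66.6 (log2 fold change -0.41, SE 0.14, limma adjusted p = 0.0678). Mgat2, which opens the second branch of complex N-glycans, stood at 2073 ± 104 and 2124 ± 190 (limma adjusted p = 0.814). B4galt2, a galactosyltransferase close to B4galt1, had a brighter probe set at 350 ± 58.0 and 387 ± 22.8 (log2 fold change 0.16, limma adjusted p = 0.448). A dimmer one rose from 85.5, 170 and 58.1 to 288, 319 and 178 (1.42, SE 0.34, limma adjusted p = 0.0178), the largest difference of any tested member probe set. With the mean of both, B4galt2 passed (log2 fold change 0.79, limma adjusted p = 0.0203). B4galt3, a further member of that family chosen after its values were seen, gave 1640, 1707 and 1721 against 1740, 1682 and 1619 (limma adjusted p = 0.947).

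**Figure D2:**
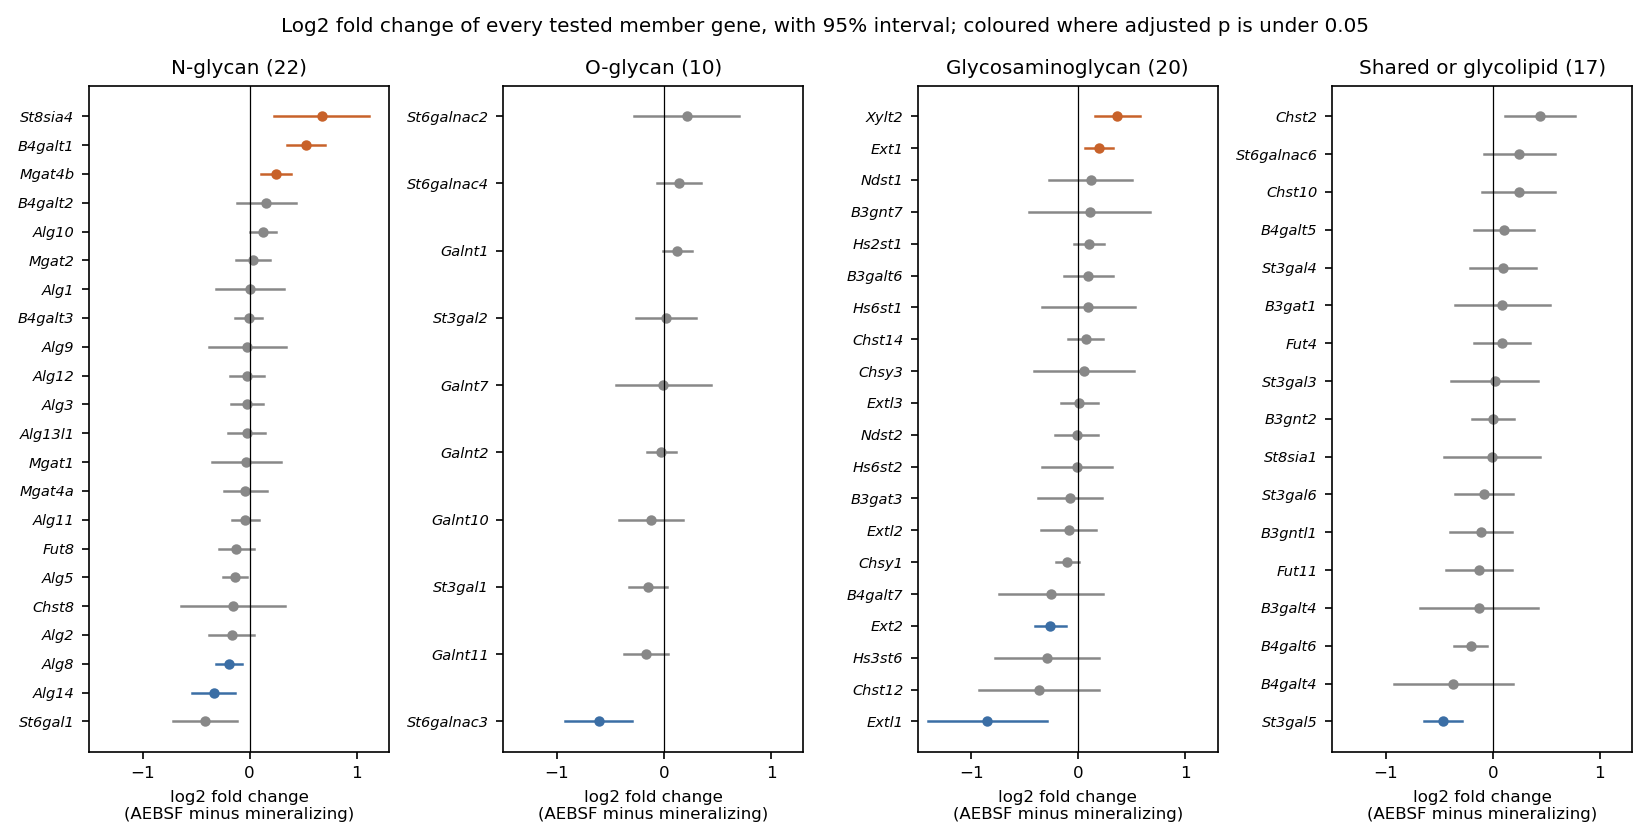
Log2 fold change (AEBSF minus mineralizing) of each of the 69 tested member genes in 4 panels by synthesis group, with bars for the 95% interval from limma, blue where the gene fell, orange where it rose and grey where it did not pass. Most points lie close to 0 on either side, from -0.85 (Extl1, whose AEBSF mean lay below the signal filter) to 0.67 (St8sia4).

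Of 19 genes of O-glycan synthesis, 10 were tested, 1 fell and 0 rose, a share of 10.0% against 16.3% of all tested genes; the difference was not tested. St6galnac3, which adds a sialic acid to the GalNAc of already sialylated O-glycans and gangliosides, had signals of 241, 230 and 252 without AEBSF and 148, 149 and 178 with it. The groups lay apart and the mean fell 1.53-fold (log2 fold change -0.61 with SE 0.14 and limma adjusted p = 0.0165). The call was lost when mineralizing array 1 or 3, or AEBSF array 1, was left out (limma adjusted p = 0.0596, 0.058 and 0.0509). St6galnac4, with a closely related activity, gave 1987, 1577 and 1963 against 2053, 2200 and 1810, which overlap (log2 fold change 0.14, SE 0.09, limma adjusted p = 0.379).

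No tested GalNAc transferase, the family that begins these glycans, passed in limma: 0 of 5, and 0 of 5 at an unadjusted p under 0.05. With 16.3% of all tested genes passing, 5 genes are too few to show a difference, which was not tested. Galnt1 stood at 1510, 1674 and 1682 without AEBSF and at 1756, 1822 and 1719 with it. The AEBSF values were all higher, by a log2 fold change of 0.12 (95% interval -0.01 to 0.26, limma adjusted p = 0.224), and its other tested probe sets gave 0.14 and 0.13. Galnt2 gave 1647 ± 49.1 and 1620 ± 78.9 (log2 fold change -0.02, 95% interval -0.16 to 0.11). The intervals of all 5 lay within 1.5-fold of no change. St3gal1, which caps core 1 O-glycans with sialic acid, stood at 1044 ± 55.1 and 944 ± 90.9 (limma adjusted p = 0.26). The other 8 Galnt genes on the array lay below the signal filter.

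Glycosaminoglycan synthesis had 28 genes, of which 20 were tested, and 2 fell and 2 rose. Each direction held a share of 10.0%, against 9.24% lower and 7.11% higher of all tested genes. The differences were not tested. The paired polymerases of heparan sulfate went opposite ways. EXT1 and EXT2 form a complex that extends the chain. Ext1 rose from 1897, 1946 and 1945 to 2271, 2281 and 2069 (log2 fold change 0.19, SE 0.06, limma adjusted p = 0.0498). Ext2 fell from 1083, 1179 and 1179 to 972, 950 and 944 (log2 fold change -0.26 with SE 0.07 and limma adjusted p = 0.0233). The groups did not overlap for either gene.

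Within an array the log2 ratio of the Ext1 signal to the Ext2 signal was 0.75 ± 0.05 without AEBSF and 1.21 ± 0.07 with it (SD, n = 3 each), with all 3 AEBSF values higher. The ratio was chosen after the values were seen and restates the 2 differences above, so it is a description with no test. The Ext1 call was lost without mineralizing culture 1, 2 or 3 (limma adjusted p = 0.153, 0.123 and 0.103), without AEBSF culture 1 or 2 (0.131 and 0.121), and with hybridization-control scaling (log2 fold change 0.07, limma adjusted p = 0.706). A second Ext1 probe set gave 0.02 (limma adjusted p = 0.95). The Ext2 call was lost without mineralizing culture 2 or 3 (limma adjusted p = 0.0958 and 0.0844).

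The related gene Extl1, a GlcNAc transferase of heparan synthesis, was dim. Its signals were 99.0, 99.5 and 100.2 without AEBSF and 69.7, 40.9 and 59.2 with it (1.80-fold lower, or -0.85 on the log2 scale, SE 0.25, limma adjusted p = 0.0467). The mineralizing values were almost equal while the AEBSF values were scattered. The AEBSF mean of 56.6 lies below the signal filter of 67.2, so the gene was tested by virtue of its mineralizing arrays, and its call was lost when mineralizing array 1, 2 or 3 (limma adjusted p = 0.125, 0.118 and 0.116) or AEBSF array 2 or 3 was left out (0.108 and 0.0664). A second Extl1 probe set lay below the filter and was not tested. Its signals of 49.5, 104 and 58.0 without AEBSF and 56.2, 46.8 and 58.4 with it overlapped. Extl3, which starts heparan chains, stood at 704 ± 42.5 and 708 ± 17.0 (log2 fold change 0.01, 95% interval -0.16 to 0.18). Chsy1, a chondroitin polymerase, gave 4901, 5031 and 5087 against 4772, 4504 and 4702, lower on every AEBSF array but not past the threshold (log2 fold change -0.10, SE 0.05, limma adjusted p = 0.2).

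At the start of the chain, Xylt2, a xylosyltransferase that attaches the first sugar to the core protein, rose 1.29-fold. Its signals were 386, 349 and 340 without AEBSF and 464, 469 and 448 with it, without overlap (log2 fold change 0.36, SE 0.10, limma adjusted p = 0.029). Its other tested probe sets gave 0.45 and 0.41, alike in size though neither passed (limma adjusted p = 0.155 and 0.139). The call was lost when mineralizing array 2 or 3 (limma adjusted p = 0.0957 and 0.0912) or AEBSF array 1 or 2 was left out (0.0737 and 0.0677), and with hybridization-control scaling (log2 fold change 0.24, limma adjusted p = 0.285). Xylt1, its paralogue and outside the rule for named genes, lay below the filter with signals from 12.0 to 61.3. The 3 tested genes of the next linker steps did not pass (limma adjusted p from 0.487 to 0.741).

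None of the 8 tested sulfotransferases of glycosaminoglycans passed in limma, and 0 had an unadjusted p under 0.05. Of all tested genes 16.3% passed, and 8 genes are too few to show that this step differed, which was not tested. Hs2st1, which sulfates heparan at the 2-O position, stood at 1832, 1897 and 1777 without AEBSF and 1803, 2054 and 2049 with it (log2 fold change 0.10, 95% interval -0.04 to 0.24). Its other probe sets gave 0.15 and 0.13. Chst14, the dermatan 4-O-sulfotransferase, gave 719 ± 36.8 and 753 ± 29.0 (0.07, 95% interval -0.10 to 0.23). For 6 of the 8 the interval lay within 1.5-fold of no change, the intervals of the other 2 reached beyond it, and 7 more genes of this step lay below the filter.

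The remaining 25 genes extend or cap chains shared by several kinds of glycan, or make glycolipids. Of these, 17 were tested, 1 fell and 0 rose, a share of 5.88% against 16.3% of all tested genes, a difference not tested. St3gal5 makes GM3, the ganglioside from which most others are built. Its signals were 1031, 986 and 1024 without AEBSF and 827, 706 and 680 with it. The groups lay far apart beside their spread, and the mean fell 1.38-fold, from 1014 ± 24.0 to 738 ± 78.3 (log2 fold change -0.46, SE 0.08, 95% interval -0.64 to -0.28, limma adjusted p = 0.00447). Over the 18 alternatives its adjusted p ran from 0.000927 to 0.0442.

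B4galt6, an enzyme that can make lactosylceramide, the substrate of St3gal5, did not pass, with 885, 857 and 820 against 727, 732 and 758 (log2 fold change -0.21, SE 0.07, limma adjusted p = 0.0732). Its groups did not overlap either, and it passed with hybridization-control scaling (log2 fold change -0.33, limma adjusted p = 0.0489). That scaling moved the median over all tested genes to -0.12. B4galt5, of the same family and group but outside the rule for named genes, gave 244, 209 and 250 against 258, 240 and 258. Those values overlap (log2 fold change 0.11, limma adjusted p = 0.629). B3gnt2, a polylactosamine synthase, gave 622 ± 27.0 and 624 ± 56.1 (95% interval -0.19 to 0.20). The sialyltransferase genes St3gal4 and St6galnac6 gave 354 ± 46.3 and 380 ± 64.7, and 364 ± 60.5 and 434 ± 90.9 (limma adjusted p = 0.708 and 0.32). Both overlapped between groups.

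Of the 58 tested members that did not pass, 48 had a 95% interval within 1.5-fold of no change. The other 10 could hold a larger change. Of the 29 member genes below the signal filter, single values of the brightest probe set ran from 0.964 to 98.0 with a median of 23.8. On that probe set Mgat5, a branching enzyme named after its values were seen, was the only one whose groups did not overlap. Among all tested genes 36.1% did not overlap, and no such share was taken below the filter. The Mgat5 signals were 70.3, 64.1 and 98.0 without AEBSF and 42.7, 30.3 and 52.3 with it, and it was not tested. A second Mgat5 probe set below the filter overlapped, with means of 41.7 without AEBSF and 59.2 with it, the other direction.

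Members with several tested probe sets showed how far the readout of 1 gene varies. Of 21 such genes, 16 had all values on one side of 0. Of the 4 called members among them (B4galt1, St8sia4, Xylt2 and Ext1), 0 had a second probe set that passed, though all 4 had the others on the same side.

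**Figure D3:**
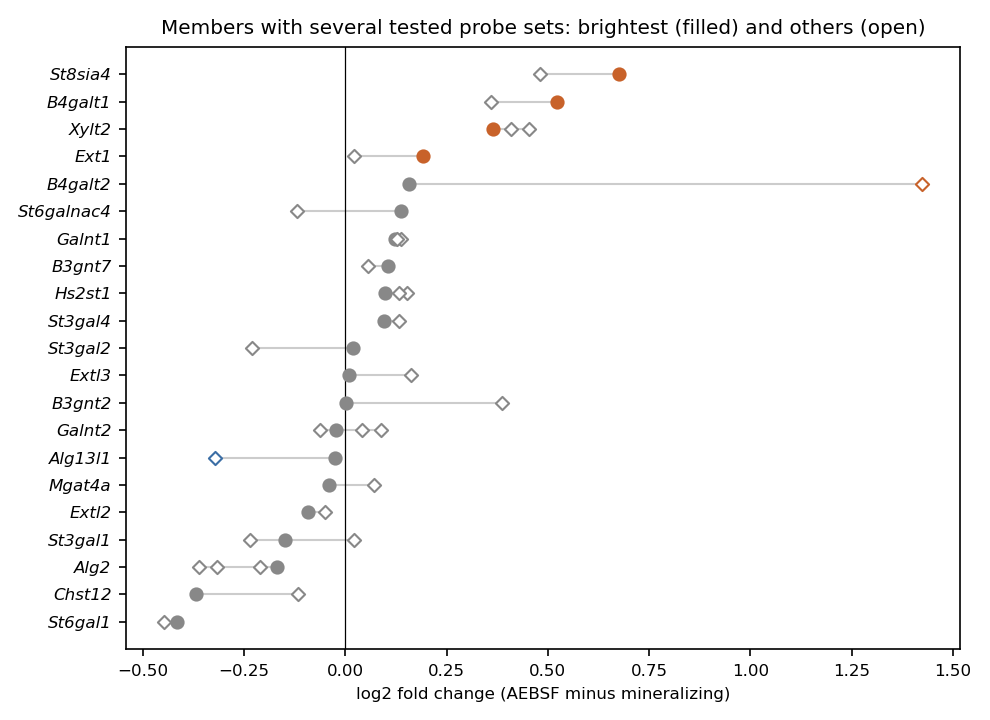
Log2 fold change (AEBSF minus mineralizing) of each tested probe set of the 21 member genes with more than 1, with a filled circle for the probe set of highest mean signal and open diamonds for the others, orange or blue where it passed. The open diamond of B4galt2 at 1.42 stands far from its filled circle at 0.16, while the 3 marks of Xylt2 and of Hs2st1 lie close together.

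The steps around these enzymes were read from lists of genes outside the naming rule. Over all tested genes 9.24% fell and 7.11% rose, the shares to set beside each list. In the supply and transfer of the N-glycan precursor, 3 of 17 tested genes fell (17.6%) and 0 rose, with a median log2 fold change of -0.14. Tusc3 and Ostc, subunits of the oligosaccharyltransferase, fell, Tusc3 from 949 ± 32.7 to 715 ± 88.7 and Ostc from 5639 ± 375 to 4710 ± 131 (-0.42 and -0.26 on the log2 scale; limma adjusted p = 0.0135 and 0.0152). Dpm1, which makes the mannose donor of the precursor, fell from 2874 ± 183 to 2266 ± 122 (log2 fold change -0.34, limma adjusted p = 0.00568). It also passed without each array in turn, but not with its probe sets averaged (log2 fold change -0.06, limma adjusted p = 0.816). The Tusc3 call was lost without mineralizing culture 2 (limma adjusted p = 0.0504), and the Ostc call with mineralizing array 2 or 3, or AEBSF array 1, left out (highest limma adjusted p = 0.0616).

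In trimming and quality control 3 of 17 fell (17.6%, against 9.24% of all tested genes) and 0 rose. Uggt2, a relative of the enzyme that re-glucosylates misfolded glycoproteins, fell from 658 ± 27.2 to 454 ± 37.6 (log2 fold change -0.54, limma adjusted p = 0.00322), and the call held in all 18 alternatives. The lectin chaperone Calr fell by 0.32 on the log2 scale (limma adjusted p = 0.00852) and Prkcsh, a subunit of glucosidase II, by 0.27 (0.0283). The Prkcsh call was lost without each array other than AEBSF culture 1 (highest limma adjusted p = 0.0983).

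Among other O-glycosylation genes 4 of 13 fell (30.8%, against 9.24% of all tested genes) and 0 rose. Ogt, which places single GlcNAc residues on proteins of the cytosol and nucleus and not on secreted ones, fell from 1669 ± 66.5 to 1247 ± 94.6 (log2 fold change -0.42, limma adjusted p = 0.00281), again in all 18 alternatives. Gcnt2, which branches polylactosamine, fell by 0.40 (limma adjusted p = 0.0117; 0.0572 without mineralizing culture 2). C1galt1c1, the chaperone of the core 1 enzyme, fell by 0.23 and B3glct, which elongates O-fucose, by 0.26 (limma adjusted p = 0.0305 and 0.0407). The C1galt1c1 call was lost without each array other than AEBSF culture 2, and the B3glct call without any 1 of the 6 (highest limma adjusted p = 0.113 and 0.146).

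The list of other glycosaminoglycan synthesis genes also holds the tyrosine sulfotransferases Tpst1 and Tpst2. Of its 11 tested genes 2 fell and 1 rose (18.2% and 9.09%, against 9.24% and 7.11% of all tested genes). Csgalnact2, which starts chondroitin chains, fell by 0.22 on the log2 scale, and Tpst2, which sulfates tyrosine and not sugar, by 0.24 (limma adjusted p = 0.0364 and 0.0494). Chpf, a chondroitin polymerizing factor, rose from 968, 1033 and 1182 to 1551, 1396 and 1140, groups that overlap (log2 fold change 0.35, limma adjusted p = 0.0488). These 3 calls were lost in 10 or more of the 18 alternative fits, Csgalnact2 and Tpst2 without each array other than AEBSF culture 3, and Chpf with array 1 or 2 of either group left out (highest limma adjusted p = 0.109, 0.167 and 0.169).

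For the donors, 1 of 24 tested synthesis genes fell and 2 rose (4.17% and 8.33%, against 9.24% and 7.11% of all tested genes). Papss2, which makes the sulfate donor PAPS, fell from 2803 ± 52.8 to 2345 ± 119 (log2 fold change -0.26, limma adjusted p = 0.0127; 0.0563 with its probe sets averaged). Pmm1, a phosphomannomutase, rose from 522 ± 27.3 to 682 ± 70.1, and Bpnt2, which clears the PAP left by sulfation in the Golgi, from 4306 ± 126 to 4855 ± 164 (limma adjusted p = 0.0208 and 0.0481). The Bpnt2 call was lost without any 1 of the 6 arrays, the Pmm1 call with array 1 or 2 of either group left out (highest limma adjusted p = 0.189 and 0.0861), and both with hybridization-control scaling. Of 11 tested transporters, 1 fell (9.09%) and 0 rose. Slc35a5, of the nucleotide-sugar transporter family, fell from 1268 ± 42.6 to 990 ± 52.6 (log2 fold change -0.36, limma adjusted p = 0.00585).

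Proteoglycan core proteins, the carriers of the glycosaminoglycan chains, gave 5 falls and 1 rise among 17 tested genes, with a median log2 fold change of -0.24. These shares were 29.4% and 5.88%, against 9.24% and 7.11% of all tested genes. Gpc3, a cell-surface heparan sulfate proteoglycan, fell from 3071, 2736 and 2842 to 1954, 1930 and 1995 (1.47-fold, or -0.56 on the log2 scale, SE 0.06, limma adjusted p = 0.000233). Vcan, the large matrix proteoglycan versican, fell from 1147, 1151 and 1148 to 721, 761 and 783 (1.52-fold; -0.61, SE 0.07, limma adjusted p = 0.000293). On these brightest probe sets both lay far outside the spread of either group and passed without each array in turn. With all probe sets of the gene averaged, neither passed and the falls were smaller (log2 fold change -0.12 and -0.30, limma adjusted p = 0.356 and 0.0859). Gpc6 and Srgn fell by 0.53 and 0.66, the latter the storage-granule proteoglycan serglycin (limma adjusted p = 0.0266 and 0.0215). The heparan sulfate syndecan Sdc4 fell by 0.43 and Sdc1 rose by 0.21 (limma adjusted p = 0.0174 and 0.047), both named outside the fixed rule.

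Of these, the Gpc6 call was lost with array 1 or 3 of either group left out, the Srgn call with mineralizing array 2 or 3, or AEBSF array 1, left out, and the Sdc4 call with mineralizing array 3, or AEBSF array 2 or 3, left out (highest limma adjusted p = 0.0997, 0.0992 and 0.0668). The Sdc1 rise was lost without each array other than AEBSF culture 3 (highest limma adjusted p = 0.136). Gpc6 and Sdc1 also did not pass with probe sets averaged (log2 fold change -0.48 and 0.10, limma adjusted p = 0.124 and 0.369). The lists were described by counts and shares alone, and their difference from other genes was not tested.

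**Figure D4:**
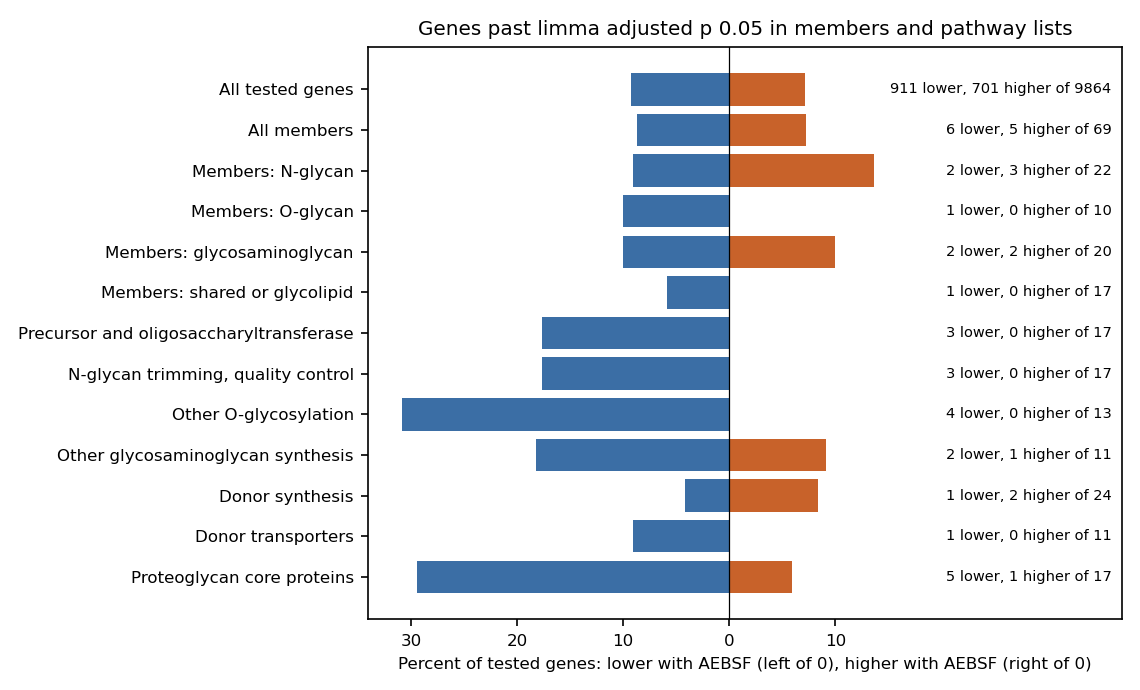
Percent of tested genes past limma's adjusted p of 0.05, lower with AEBSF to the left of 0 in blue and higher to the right in orange, for all 9864 genes, the 69 tested members, their 4 synthesis groups and 7 lists of neighbouring steps. The bars of all members (8.70% lower, 7.25% higher) nearly match those of all genes (9.24% and 7.11%), and 2 further bars, proteoglycan core proteins and other O-glycosylation, reach farthest to the left.

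All signals are relative to the array. With scaling to 9 hybridization-control probe sets, the median over all tested genes went from 0.002 to -0.12 on the log2 scale. The share of called genes that were lower went from 56.5% to 93.7%, and 8 members were then lower and 1, B4galt1, higher. The rises above are therefore rises relative to other transcripts. What moved the arrays against these controls was not tested. RNA per cell, cell number and differences in labelling or hybridization cannot be told apart here. Of 8 osteoblast markers with a probe set, 7 were above the signal filter, including Ibsp, Alpl and Phex, while Bglap lay below it. In limma 3 of the 7 were lower with AEBSF (42.9%, against 9.24% of all tested genes) and 0 higher, a difference not tested. Their log2 fold changes ran from -1.13 to 0.05, with a median of -0.17. The summed signal of the 8 markers, in which the brightest weigh most, ran from 27910 to 29255 without AEBSF and from 25374 to 26296 with it. Few markers of other cell types passed the filter: 0 of 5 adipocyte and 0 of 4 endothelial markers passed the filter, and 1 of 4 chondrocyte (Acan), 1 of 5 macrophage (Csf1r) and 1 of 5 muscle markers (Des) did. Their part in these results was not tested.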

How the data were processed

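RNA of 6 cultures of UMR106-01 cells was measured on 1 Affymetrix rat array each, 3 mineralizing and 3 with AEBSF, grouped by sample titles; p-values measure the spread between these cultures. The values the authors deposited are intensities, 1 MAS5 signal per probe set, and per the submitters' processing notes came from GCOS. The software versions, detection calls and scaling target were not given in the sources. Trimmed of 2% at either end, the mean signal was 500.15 or 500.16 on every array, so each array had been scaled to 1 level. No 2 arrays were copies (at most 2 equal values in any of 15 pairs).

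Genes were named from the platform annotation with symbols updated through RefSeq's GRCr8 table. Probe sets with several symbols (436, of which 1 holds members of these families) or unnamed (9780) were not named, and 57 control probe sets were left out. Log2 signals, with no constant added, were fitted in R 4.3.3 with limma 3.58.1 (lmFit, eBayes with a trend of variance on signal) on the 18625 probe sets whose mean log2 signal lay above the 40th percentile (a signal of 67.2). Benjamini-Hochberg adjustment ran over all 18625, with a threshold of 0.05. Background shares are those of the same fit. The brightest probe set on average stood for a gene. The steps were tested on simulated data. Precision is limited by having 3 arrays a group.

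Members and lists were chosen with earlier results of these data known. Genes named are all members that passed, those with another probe set that passed, the 4 brightest others of each synthesis group, and up to 4 called genes of each list; further ones are marked as such. Groups and roles come from textbook knowledge, with Alg13l1 placed after the files were seen. Alternatives were quantile normalization, median centring, added constants of 16 and 64, filters at the 20th and 60th percentile or none, a constant or robust variance prior, a replicate block, scaling to hybridization controls, averaging all tested probe sets of a gene, and leaving out each array.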

Additional observations from a re-analysis of the deposited data

How the results depend on the processing

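With 3 arrays per group most calls here lie near the threshold, and the number of members called moved with the processing. The 11 called members kept their direction in every alternative that tested them (17 for Extl1, St8sia4 and St6galnac3, 18 for the others). Most of these fits could not have reversed it. The groups of all 11 did not overlap, so leaving out an array or adding a constant cannot change the sign. Filters, variance priors and the replicate block leave the fold change as it was. Against 6 lower and 5 higher, the counts were 2 and 2 with median centring (5.80% of members, 12.3% of all tested genes) and 2 and 2 with a constant variance prior (5.80% and 5.54%). The number higher was 3 with quantile normalization, 3 with a 20th-percentile filter, 3 with no filter, 3 with probe sets averaged per gene and 1 with scaling to hybridization controls. Leaving out 1 array gave 1 to 4 lower and 1 to 3 higher. Adding 16 or 64 to the signals or a robust prior called the same 11 genes. The median log2 fold change of the N-glycan and glycosaminoglycan groups moved from -0.03 and -0.003 to -0.15 and -0.13 with scaling to hybridization controls, as the median of all genes moved from 0.002 to -0.12; without 1 array the medians of the 4 groups stayed within -0.07 and 0.05. The cause of the other shifts was not tested. The replicate numbers are not known to pair cultures: deviations of same-numbered arrays correlated at 0.011, -0.119 and -0.036. With the replicate number as a block, 3 members were lower and 1 higher, 5.80% against 11.7% of all tested genes (B4galt1, St3gal5 and St6galnac3 passed, and St6gal1 was added). Dim probe sets limit what can be read for 29 members below the filter.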
